A study of Homo sapiens with 12 samples.

Results

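The Wnt ligand WNT16 and 9 genes that act in or read out the Wnt/beta-catenin pathway (DKK1, AXIN2, LGR5, TCF7, LEF1, NKD1, RNF43, ZNRF3 and CTNNB1) were examined in HCT116 cells, an established human colorectal cancer cell line, given doxorubicin or PBS. The members were found by gene name in a deposited table of 57908 loci, where these 10 genes name 19 loci, and 9 of those 19 loci passed a filter on low values (2 or more samples at 1 FPKM or above, met by 15833 loci). WNT16 was included because its level was much lower after doxorubicin, so its doxorubicin values are a description with no test. FPKM is the number of fragments per kilobase of transcript, scaled to the library's mapped fragments.

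The design has 6 groups. Cells carried an NSE4A-flag plasmid (NSE4 cells), an SMC5-flag plasmid (SMC5 cells) or a control plasmid that the titles call GFP and the design text a vector (GFP cells). Transfected cells were split 24 h after transfection, and each portion received 1000 nM doxorubicin for 24 h (NSE4-DOX, SMC5-DOX and GFP-DOX) or PBS (NSE4, SMC5 and GFP), with 2 libraries per group. NSE4A and SMC5 are subunits of the SMC5/6 complex, which acts in DNA repair, and doxorubicin is an anthracycline that traps topoisomerase II on DNA. All groups are 1 cell line carrying a plasmid, so no untransfected cells are among them, and the labels do not state whether replicate libraries are separate cultures.

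Wnt ligands bind Frizzled receptors and LRP5 or LRP6 at the cell surface, which stops the destruction complex of APC, AXIN and GSK3 from marking beta-catenin for degradation. Beta-catenin then enters the nucleus and activates target genes with TCF/LEF factors, and many of these targets are themselves inhibitors of the pathway. HCT116 cells carry a mutation of CTNNB1 that stabilises beta-catenin, so the pathway is active in them downstream of the receptor. WNT16 is a secreted ligand best known from bone, skin and joint tissue.

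Promoters of the members that differed most between doxorubicin and PBS are shown first, so that the letters of the TCF/LEF-type motif near each start site can be compared. Each is 250 bases before to 50 bases after a RefSeq start in GRCh38.p14, written 5′ to 3′ along the gene, and capitals mark CTTTGA or CTTTGT on either strand (TCAAAG or ACAAAG where the match is on the opposite strand). Entries were found for 6 of the 10 members.
WNT16, chr7:121328750-121329049, plus strand: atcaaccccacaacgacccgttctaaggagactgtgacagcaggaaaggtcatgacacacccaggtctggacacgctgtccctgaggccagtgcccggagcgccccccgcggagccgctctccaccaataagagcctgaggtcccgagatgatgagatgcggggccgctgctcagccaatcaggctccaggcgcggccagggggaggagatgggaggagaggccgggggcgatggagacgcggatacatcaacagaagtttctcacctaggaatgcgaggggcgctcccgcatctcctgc
DKK1, chr10:52314031-52314330, plus strand: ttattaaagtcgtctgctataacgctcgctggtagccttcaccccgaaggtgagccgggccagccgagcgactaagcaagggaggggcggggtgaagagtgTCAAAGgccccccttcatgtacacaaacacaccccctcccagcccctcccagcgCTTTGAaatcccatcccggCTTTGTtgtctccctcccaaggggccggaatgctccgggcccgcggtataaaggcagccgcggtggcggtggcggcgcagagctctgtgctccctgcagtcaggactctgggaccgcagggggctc
TCF7, chr5:134123368-134123667, plus strand: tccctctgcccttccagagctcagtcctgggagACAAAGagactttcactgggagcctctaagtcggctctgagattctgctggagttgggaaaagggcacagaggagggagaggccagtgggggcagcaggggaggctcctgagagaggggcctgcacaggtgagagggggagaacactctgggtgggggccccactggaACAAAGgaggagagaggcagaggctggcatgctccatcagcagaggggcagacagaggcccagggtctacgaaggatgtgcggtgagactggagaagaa
RNF43, chr17:58417485-58417784, minus strand: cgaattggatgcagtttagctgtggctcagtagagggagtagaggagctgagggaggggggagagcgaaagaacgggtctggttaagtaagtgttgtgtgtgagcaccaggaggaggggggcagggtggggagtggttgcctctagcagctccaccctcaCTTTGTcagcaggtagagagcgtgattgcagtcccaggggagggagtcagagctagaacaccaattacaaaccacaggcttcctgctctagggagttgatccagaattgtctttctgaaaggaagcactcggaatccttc
The DKK1 window held 3 matches, beginning 149, 95 and 76 bases before the start, and the WNT16 window held 0. The TCF7 entry printed above held 2, and its other entry, at chr5:134115363-134115662, held 0. Each of the 2 RNF43 entries held 1, and the entries of CTNNB1 and LEF1 held 0. Of all 35116 RefSeq promoter windows of this length 26.2% held at least 1 such match, so a match is a description of the letters and not a binding site.

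By estimate, from the FPKM that a single fragment is worth, library depth was 13100000 to 19400000 fragments. Loci above 0 numbered 25194 to 26185 in doxorubicin libraries and 23635 to 24107 in PBS libraries. The 2 libraries of SMC5-DOX were far closer to each other in detection than any other pair. Detection above 0 was unshared at 7 loci, compared with 4216 to 5291 loci for each remaining pair of replicates. Some of their values still differed, such as DVL1 at 44.75 and 54.72 FPKM and AES at 114.2 and 132.3 FPKM. The mean of the 2 libraries was counted as 1 sample, so n = 1 in SMC5-DOX, n = 2 in the other groups, and 11 samples were analysed. NSMCE4A, the gene of NSE4A, stood at 4069 to 6287 FPKM in samples with its plasmid and at 32.6 to 89.4 FPKM in those without it, and SMC5 at 811 to 979 FPKM with its plasmid and 7.02 to 34.4 FPKM without. Of 8 colorectal epithelial markers 6 were above 1 FPKM in every sample, and the 8 summed to 3554 to 4176 FPKM with doxorubicin and 3744 to 4417 FPKM with PBS, with the KRT18, KRT19 and CLDN7 values read from loci shared with other genes, while CDX1 reached at most 0.149 FPKM and VIL1 at most 2.43 FPKM. Of the markers of other cell types only COL1A1 (15.6 to 27.0 FPKM) and the locus shared by CD14 and the mitochondrial gene NDUFA2 were above 1 FPKM in every sample. The 6 fibroblast markers summed to 16.1 to 27.9 FPKM with doxorubicin and 17.98 to 25.6 FPKM with PBS, and the 3 endothelial markers found to at most 0.474 FPKM. The 5 leukocyte markers summed to 112 to 122 FPKM with doxorubicin and 85.3 to 99.3 FPKM with PBS, nearly all from that shared locus, while PTPRC, the pan-leukocyte gene, reached at most 0.0378 FPKM. The share of all FPKM held by a mitochondrial locus ranged over 16.6 to 33.0%.

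WNT16 was far lower in every doxorubicin-treated sample than in every PBS sample. It was listed at 17.4 and 16.9 FPKM in GFP-DOX, against 105 and 99.8 FPKM in GFP. In NSE4-DOX it was at 16.4 and 20.4 FPKM, against 110 and 108 FPKM in NSE4, and in SMC5-DOX at 16.6 FPKM, against 115 and 99.7 FPKM in SMC5. The 5 doxorubicin samples lay between 16.4 and 20.4 FPKM and the 6 PBS samples between 99.7 and 115 FPKM, with no overlap. As means, GFP-DOX stood at 17.1 ± 0.351 FPKM against 103 ± 3.87 FPKM in GFP, and NSE4-DOX at 18.4 ± 2.81 FPKM against 109 ± 1.24 FPKM in NSE4 (SD, n = 2 each). In bulk RNA, fewer cells that express a gene and less RNA of it per cell cannot be told apart.

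The WNT16 difference was of much the same size in the 3 plasmid backgrounds. The level after doxorubicin was 0.167 of the PBS mean in GFP cells, 0.169 in NSE4 cells and 0.155 in SMC5 cells. On the log2(FPKM + 1) scale used for all tests, which understates changes of genes with low FPKM, the differences were -2.51, -2.51 and -2.62. Ordered from the most negative change, WNT16 was number 25 of 15833 loci in GFP cells, 17 in NSE4 cells and 26 in SMC5 cells. No effect of the plasmids on WNT16 was detectable: with PBS the log2 difference was 0.09 for NSE4 against GFP cells (95% interval -0.18 to 0.37) and 0.06 for SMC5 against GFP cells (-0.21 to 0.34). The difference between the doxorubicin effects, the interaction, was 0.00 for NSE4 (-0.39 to 0.39) and -0.10 for SMC5 (-0.54 to 0.33), with a limma adjusted p of 1 in each case. By group the order of WNT16 means was NSE4, SMC5, GFP, NSE4-DOX, GFP-DOX and SMC5-DOX, and only the step between GFP and NSE4-DOX exceeded the spread between samples.

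**Figure D1:**
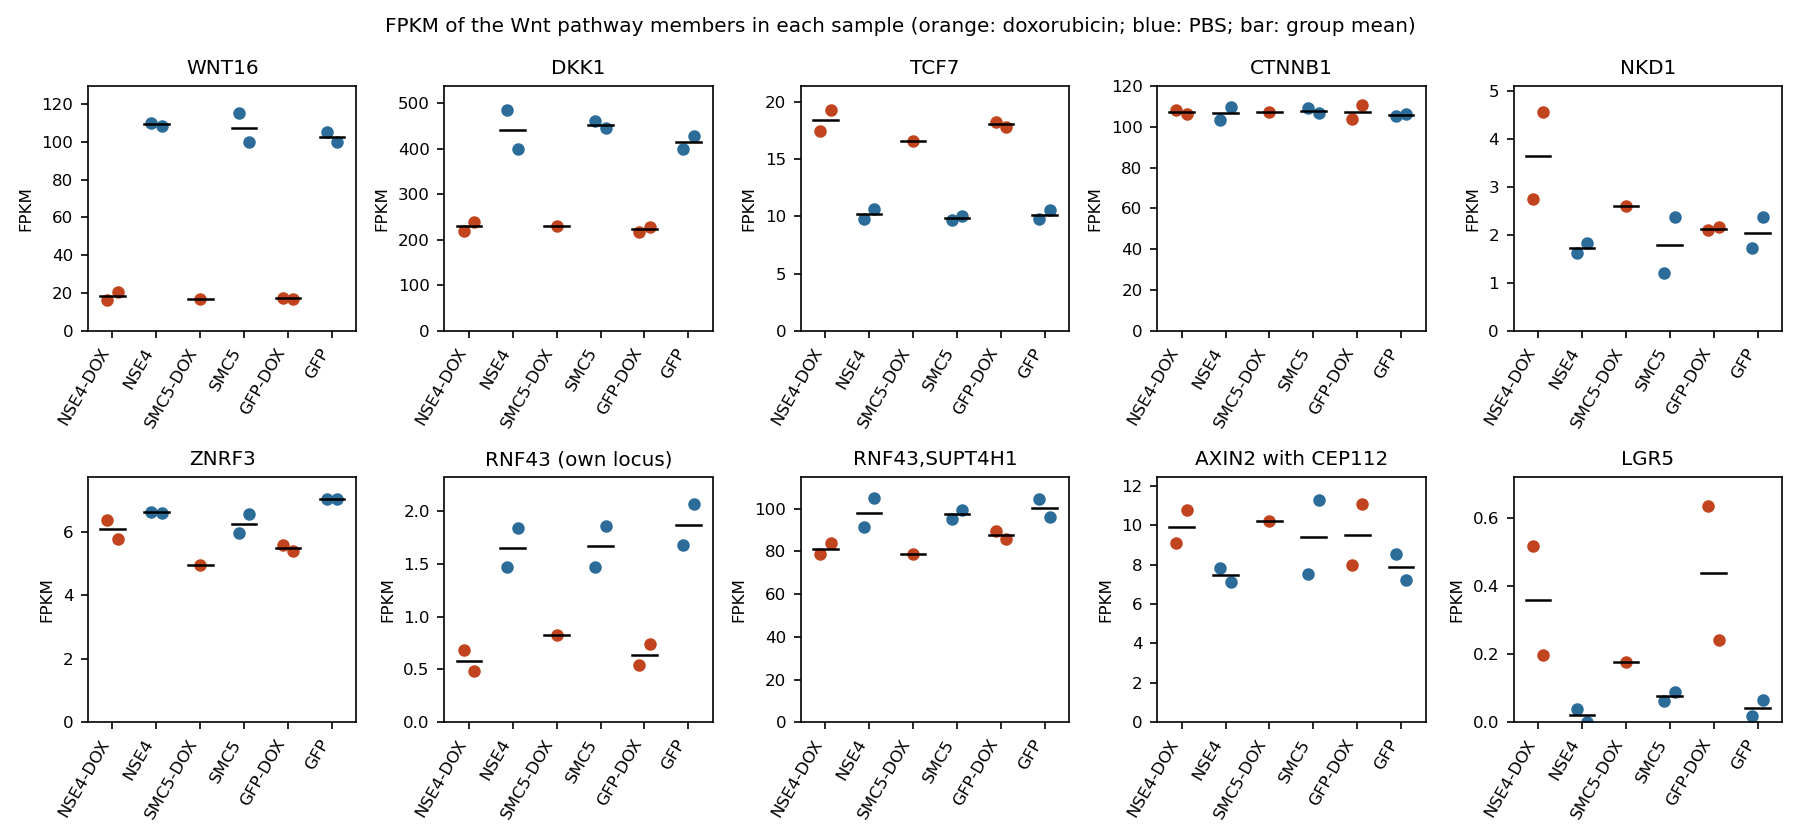
FPKM of the members (y axes, linear and starting at 0) in the 6 groups (x axes), with a point per sample and a bar at the group mean; SMC5-DOX is 1 sample. WNT16 at 16.4 to 20.4 FPKM and DKK1 at 217 to 239 FPKM with doxorubicin lie below all PBS samples, TCF7 at 16.5 to 19.3 FPKM lies above them, and CTNNB1 is level at 103 to 111 FPKM.

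The other members were tested in the same fit as all loci, with limma and Benjamini-Hochberg adjustment over the 15833 loci, and a locus is called where the adjusted p is under 0.05. Of the 8 member loci tested beside WNT16, 1 rose and 2 fell in GFP cells, 1 rose and 2 fell in NSE4 cells, and 1 rose and 1 fell in SMC5 cells. Among all loci 31.1% were called in GFP cells, 30.2% in NSE4 cells and 20.9% in SMC5 cells, so the members' shares are near the background and are no result about them as a set. RNF43 XLOC_022539, 1 of the 2 that fell in GFP and in NSE4 cells, passed the filter only through its PBS samples. Its fall was thus favoured by the filter. The median log2 change of the 8 was -0.09 in GFP cells, -0.05 in NSE4 cells and -0.14 in SMC5 cells, beside 0.02, 0.03 and 0.02 over all loci. The SMC5 calls rest on the spread borrowed from all 6 groups: fitted on the 3 SMC5 samples alone, 0 loci of the whole table passed.

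DKK1, a secreted inhibitor that binds LRP5 and LRP6 and is itself induced by beta-catenin, fell with doxorubicin in all 3 backgrounds. It was at 217 and 228 FPKM in GFP-DOX, against 400 and 427 FPKM in GFP. NSE4-DOX cells had 220 and 239 FPKM, against 484 and 398 FPKM in NSE4, and SMC5-DOX had 229 FPKM, against 460 and 445 FPKM in SMC5. Every doxorubicin sample lay below every PBS sample, which 18.6% of all tested loci also did. The log2 changes were -0.89 (SE 0.11, adjusted p = 0.000667), -0.93 (SE 0.11, adjusted p = 0.000563) and -0.98 (SE 0.13, adjusted p = 0.00195) in GFP, NSE4 and SMC5 cells. DKK1 stayed the most abundant member by FPKM in both treatments, above CTNNB1 and WNT16. It is the member whose 3-match promoter is printed above.

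TCF7, which encodes the transcription factor TCF-1, was the member that rose. It stood at 18.3 and 17.8 FPKM in GFP-DOX, against 9.80 and 10.5 FPKM in GFP. The values were 17.4 and 19.3 FPKM in NSE4-DOX, against 9.74 and 10.6 FPKM in NSE4, and 16.5 FPKM in SMC5-DOX, against 9.65 and 10.0 FPKM in SMC5. All 5 doxorubicin samples were above all 6 PBS samples, as in 22% of tested loci. The log2 changes were 0.77 (SE 0.10, adjusted p = 0.0011), 0.79 (SE 0.10, adjusted p = 0.00102) and 0.69 (SE 0.13, adjusted p = 0.00733) in GFP, NSE4 and SMC5 cells. LEF1, the related factor of the same family, was close to the detection limit, at 0 to 0.142 FPKM with doxorubicin and 0 to 0.0853 FPKM with PBS, about 7 fragments in a library at most. It was listed at 0 in both NSE4 libraries and did not pass the filter. Tested without the filter it was not called in GFP, NSE4 or SMC5 cells (log2 differences -0.06, 0.15 and 0.03, adjusted p = 0.409, 0.0554 and 0.874).

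CTNNB1, which encodes beta-catenin, was level across all groups. It was at 104 and 111 FPKM in GFP-DOX, against 106 and 106 FPKM in GFP, and the other samples lay between 103 and 110 FPKM. Its doxorubicin log2 changes were 0.02 (95% interval -0.17 to 0.20) in GFP cells, 0.01 (-0.17 to 0.19) in NSE4 cells and -0.01 (-0.23 to 0.22) in SMC5 cells, so a change of the size of DKK1's lies outside each interval. The FPKM does not tell the alleles of CTNNB1 apart, and beta-catenin protein was not analysed here.

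**Figure D2:**
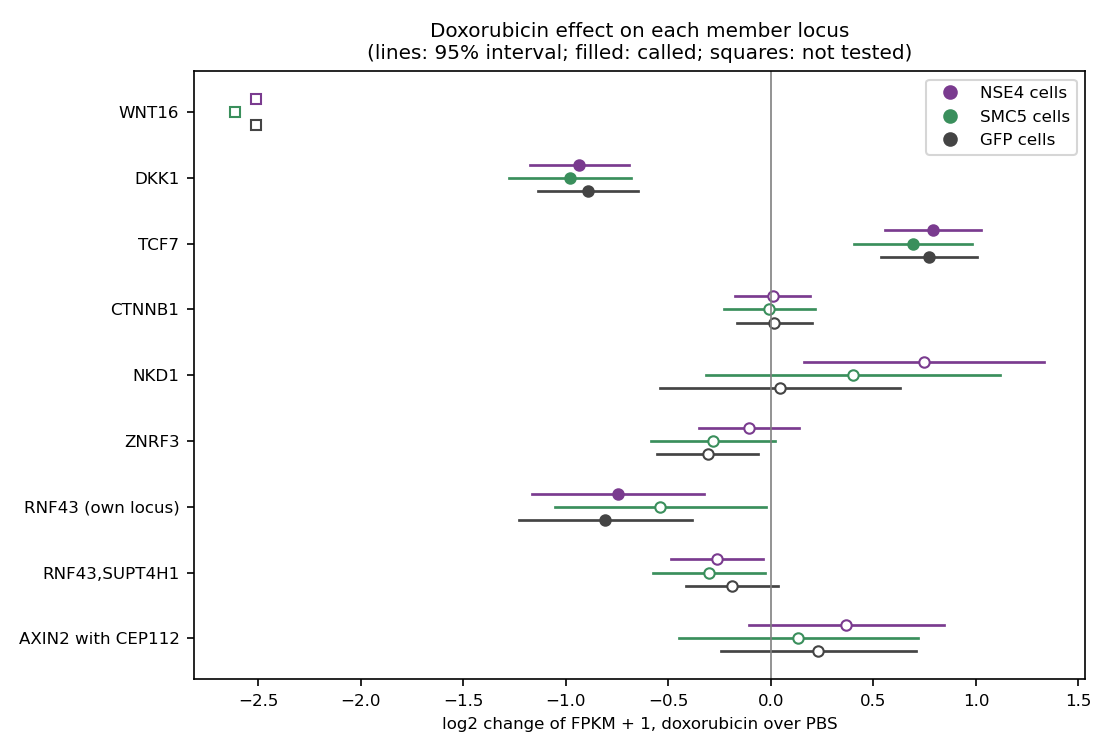
Log2 change of FPKM + 1 with doxorubicin over PBS (x axis) for each tested member locus (y axis) in NSE4, SMC5 and GFP cells, with 95% intervals as lines and called loci filled; WNT16 squares carry no test. WNT16 lies at -2.51 to -2.62, DKK1 at -0.89 to -0.98 and TCF7 at 0.69 to 0.79, while the intervals of CTNNB1 span 0.

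RNF43 and ZNRF3 are ubiquitin ligases that remove Frizzled receptors from the membrane and are induced by beta-catenin. RNF43 names 8 loci. The locus named by RNF43 alone that passed the filter, XLOC_022539, had 0.544 and 0.737 FPKM in GFP-DOX, against 1.68 and 2.07 FPKM in GFP. It had 0.681 and 0.483 FPKM in NSE4-DOX, against 1.47 and 1.84 FPKM in NSE4, and 0.830 FPKM in SMC5-DOX, against 1.47 and 1.86 FPKM in SMC5. The doxorubicin samples did not overlap the PBS samples, but this locus passed the filter only through its PBS samples, so its separation was favoured by the filter. It was called in GFP cells (log2 change -0.81, SE 0.18, adjusted p = 0.0123) and NSE4 cells (-0.74, SE 0.18, adjusted p = 0.0174) and not in SMC5 cells (-0.54, SE 0.22, adjusted p = 0.127). The GFP call was lost without GFP replicate 2 (adjusted p = 0.0719) or GFP-DOX replicate 1 (0.0561), and the NSE4 call without NSE4 replicate 2 (0.0855) or NSE4-DOX replicate 2 (0.0851), and also when NSE4-DOX and NSE4 were fitted alone (0.0517).

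The other 6 loci named by RNF43 alone were below the filter, with means of 0.474 to 0.586 FPKM over the 11 samples. Of all 7 such loci, 7 had both GFP-DOX values below both GFP values, 5 had NSE4-DOX below NSE4, and 5 had SMC5-DOX below SMC5 with 1 above. The share of all loci that are apart in this way within a single background was not worked out. The counts therefore describe these loci and are no result about RNF43. The median ratio of doxorubicin to PBS means over the 7 loci was 0.314 in GFP cells, 0.474 in NSE4 cells and 0.561 in SMC5 cells. Over all 3 backgrounds XLOC_022541 and XLOC_022545 had every doxorubicin sample below every PBS sample, as did 9.76% of the loci above 0 in any sample. Tested without the filter, XLOC_022541 was lower in GFP cells (log2 change -0.77, adjusted p = 0.0053) and NSE4 cells (-0.40, adjusted p = 0.0473), and XLOC_022544 in GFP cells (-0.83, adjusted p = 0.0164). These loci carry the name of 1 gene and are not independent of each other. The eighth locus is shared with SUPT4H1, a transcription elongation factor gene, and the FPKM cannot be divided between them. It was at 89.8 and 86.0 FPKM in GFP-DOX, against 104 and 96.1 FPKM in GFP, and did not pass in any background (log2 changes -0.19, -0.26 and -0.30, adjusted p = 0.183, 0.0746 and 0.112 in GFP, NSE4 and SMC5 cells). Every doxorubicin sample of the shared locus lay below every PBS sample (78.7 to 89.8 FPKM, against 91.2 to 104.8 FPKM), as in 18.6% of tested loci. The NSE4 difference of the shared locus passed under median-ratio scaling (0.032) and with the 12 libraries entered as separate samples (0.045).

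**Figure D3:**
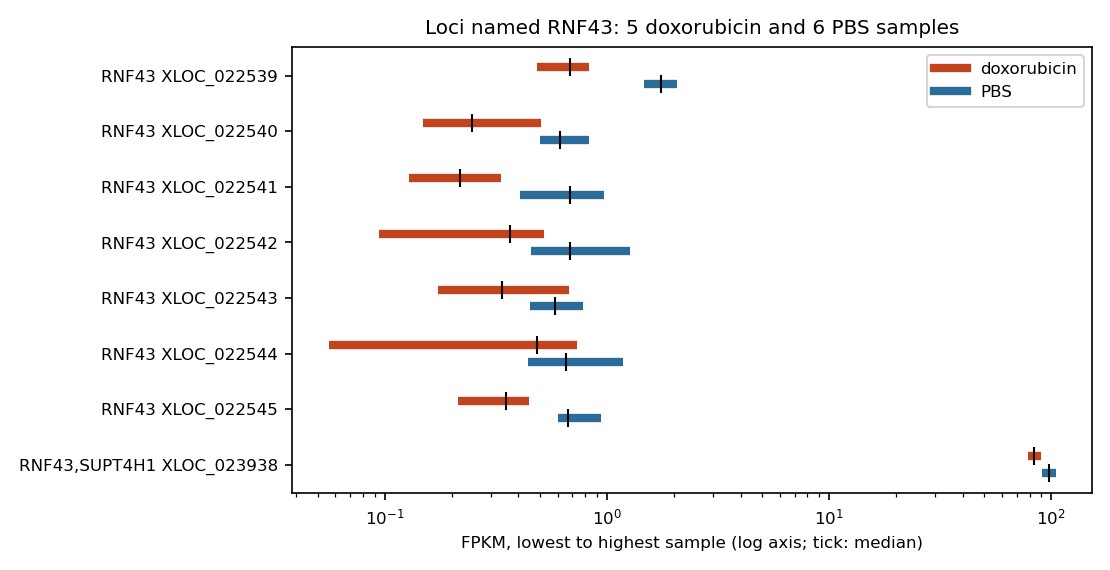
FPKM (x axis, log scale) of the 8 loci named RNF43 (y axis), drawn as the range over the 5 doxorubicin samples above the range over the 6 PBS samples, with a tick at each median. The ranges are apart for XLOC_022539 (0.483 to 0.830 FPKM with doxorubicin, 1.47 to 2.07 FPKM with PBS), which passed the filter only through its PBS samples. They are also apart for the shared locus (78.7 to 89.8 FPKM with doxorubicin, 91.2 to 104.8 FPKM with PBS), as in 18.6% of tested loci. Below the filter they are apart for XLOC_022541 (0.1285 to 0.332 FPKM, against 0.406 to 0.9745 FPKM) and XLOC_022545 (0.214 to 0.446 FPKM, against 0.602 to 0.939 FPKM), as in 9.76% of loci above 0 in any sample.

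ZNRF3 was at 5.58 and 5.39 FPKM in GFP-DOX, against 7.03 and 7.02 FPKM in GFP. It was at 6.39 and 5.78 FPKM in NSE4-DOX, against 6.64 and 6.60 FPKM in NSE4, and at 4.96 FPKM in SMC5-DOX, against 5.96 and 6.56 FPKM in SMC5. Within each background the doxorubicin samples were the lower ones, and none of the differences passed (log2 changes -0.31, -0.11 and -0.28, adjusted p = 0.0597, 0.486 and 0.166 in GFP, NSE4 and SMC5 cells). The GFP difference did pass under quantile normalization (adjusted p = 0.0385), with no filter (0.0494) and with the 12 libraries entered as separate samples (0.037), in a range of 0.037 to 0.177 over all alternatives. The remaining 2 loci named ZNRF3 were low, at 0.0404 to 0.569 FPKM with doxorubicin and 0 to 0.237 FPKM with PBS, and were not called without the filter. They went the other way: XLOC_035300 was higher with doxorubicin within each background (ratios of means 3.06, 1.79 and 3.30 in GFP, NSE4 and SMC5 cells). XLOC_035302 was higher in GFP and SMC5 cells and overlapped in NSE4 cells. The share of all loci apart in this way was not worked out.

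LGR5, a receptor for R-spondins and a marker of intestinal stem cells, was barely detected and did not pass the filter. It was at 0.634 and 0.241 FPKM in GFP-DOX, against 0.0175 and 0.0653 FPKM in GFP. NSE4-DOX had 0.517 and 0.198 FPKM, against 0.0405 and 0 FPKM in NSE4, and SMC5-DOX had 0.178 FPKM, against 0.0622 and 0.0899 FPKM in SMC5. These levels correspond to about 14 to 45 fragments in a doxorubicin library and 0 to 7 in a PBS library, for a transcript of 4611 bases. All doxorubicin samples were above all PBS samples, as in 12.9% of the 33654 loci above 0 in any sample. Tested without the filter, LGR5 was not called in GFP (log2 difference 0.45, adjusted p = 0.116), NSE4 (0.40, 0.16) or SMC5 cells (0.13, 0.814), and at this depth a change this close to 0 FPKM is not well resolved on the log2(FPKM + 1) scale.

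NKD1, a Dishevelled-binding inhibitor induced by beta-catenin, was at 2.10 and 2.16 FPKM in GFP-DOX, against 1.73 and 2.36 FPKM in GFP, with overlapping values. In NSE4-DOX it was at 2.74 and 4.56 FPKM, against 1.61 and 1.82 FPKM in NSE4, and in SMC5-DOX at 2.60 FPKM, against 1.19 and 2.38 FPKM in SMC5. The NSE4 groups do not overlap, and NSE4-DOX replicate 2 is the highest of the 11 samples. The log2 changes were 0.05, 0.75 and 0.40 in GFP, NSE4 and SMC5 cells (adjusted p = 0.922, 0.057 and 0.4). The NSE4 change passed without NSE4-DOX replicate 1 (1.03, adjusted p = 0.0429) and under median-ratio scaling (0.0492), with an adjusted p of 0.0209 to 0.288 over all alternatives. The difference between the NSE4 and GFP effects was 0.70 (95% interval -0.12 to 1.53, adjusted p = 1).

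AXIN2, the scaffold of the destruction complex and the most used readout of beta-catenin activity, has no locus of its own in the table. Its locus also names CEP112, a centrosomal protein gene, and the transcript AC004805.1, so a change of AXIN2 alone cannot be read from it. The shared locus was at 7.98 and 11.1 FPKM in GFP-DOX, against 8.52 and 7.24 FPKM in GFP. It was at 9.10 and 10.7 FPKM in NSE4-DOX, against 7.81 and 7.10 FPKM in NSE4, and at 10.2 FPKM in SMC5-DOX, against 7.504 and 11.3 FPKM in SMC5. The GFP and SMC5 groups overlap, and no doxorubicin change passed (log2 changes 0.23, 0.37 and 0.13, adjusted p = 0.429, 0.216 and 0.754 in GFP, NSE4 and SMC5 cells).

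The NSE4A and SMC5 plasmids did not change any tested member detectably. In the 4 plasmid comparisons and the 2 interactions, 0 of 54 limma tests of the 9 member loci were called and 0 had an unadjusted p under 0.05, the smallest being 0.0648 for NKD1 in NSE4-DOX against GFP-DOX (log2 difference 0.54, 95% interval -0.04 to 1.13). Of all loci 0.0442% were called for NSE4 against GFP with PBS, 0.0568% with doxorubicin, 0% for SMC5 against GFP with PBS and 0.0316% with doxorubicin, and 0.0316% and 0.0189% for the NSE4 and SMC5 interactions. For DKK1 the 95% intervals of the plasmid differences ran from -0.25 to 0.37 over the 4 comparisons, and for TCF7 from -0.41 to 0.26. They were wider for NKD1 (-0.74 to 1.13), the AXIN2 locus (-0.54 to 0.69) and RNF43 XLOC_022539 (-0.536 to 0.675). Plasmid differences within these wider limits are not excluded for these loci.

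WNT16 was the leading Wnt ligand by FPKM in PBS samples. With doxorubicin it still led the loci that name 1 ligand alone (16.4 to 20.4 FPKM, with WNT11 next at 6.66 to 8.83 FPKM). Of the 19 ligand genes, 17 loci carry the name of 1 ligand alone and 3 are shared with another name. Over the 17, WNT16 made up 28.9 to 33.4% of the summed ligand FPKM in doxorubicin samples and 82.9 to 87.0% in PBS samples. With the 3 shared loci included, its share was 16.1 to 18.3% with doxorubicin and 66.9 to 73.3% with PBS. The summed FPKM of the other 16 was 35.2 to 41.5 with doxorubicin and 17.2 to 20.6 with PBS. The highest ligand locus with doxorubicin was the one named MIR5008,WNT9A.

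Several other ligands rose where WNT16 was lower. Of the 9 single-name ligand loci tested beside WNT16, 4 rose in GFP cells, 4 in NSE4 cells and 3 in SMC5 cells, and 0 fell; 17%, 16.3% and 11% of all loci rose in these comparisons. At an unadjusted limma p under 0.05 the count of ligand loci lower was also 0 in each. WNT10A, 1 of those that rose in GFP and NSE4 cells, passed the filter only through its doxorubicin samples, so its rise was favoured by the filter. The median log2 change of the 9 loci, WNT10A included, was 0.48, 0.44 and 0.43, beside 0.02, 0.03 and 0.02 over all loci. WNT11, a ligand linked to beta-catenin-independent signalling, was at 6.94 and 8.83 FPKM in GFP-DOX, against 1.07 and 2.06 FPKM in GFP (log2 change 1.81, SE 0.23, adjusted p = 0.000893). WNT4 was at 6.70 and 6.08 FPKM in GFP-DOX, against 1.04 and 2.46 FPKM in GFP (1.48, adjusted p = 0.00217), and WNT3 at 5.70 and 5.87 FPKM, against 2.55 and 1.69 FPKM (1.13, adjusted p = 0.00307). These 3 were also called in NSE4 cells (1.45, 1.64 and 1.05) and SMC5 cells (1.47, 1.62 and 1.07), though WNT3 in SMC5 cells not without SMC5 replicate 2 (adjusted p = 0.0531).

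WNT10A was at 2.01 and 2.20 FPKM in GFP-DOX, against 0.862 and 0.790 FPKM in GFP (log2 change 0.77, adjusted p = 0.0214), which failed to pass after dropping any single GFP-DOX or GFP library (0.061 to 0.0893). Its NSE4 change (0.93, adjusted p = 0.0101) was lost without NSE4 replicate 1 (0.0574) or NSE4-DOX replicate 2 (0.0603), and its SMC5 change did not pass (0.67, adjusted p = 0.0909). Of the PBS samples only SMC5 replicate 2 reached 1 FPKM (1.41 FPKM), so WNT10A, counted above among the ligands that rose in GFP and NSE4 cells, passed the filter only through its doxorubicin samples. WNT10B, WNT6, WNT3A, WNT7A and WNT8B were at 0.563 to 6.94 FPKM with doxorubicin and 0.696 to 5.30 FPKM with PBS and were not called. Of these only WNT10B had every doxorubicin sample (5.57 to 6.64 FPKM) above every PBS sample (3.535 to 5.30 FPKM), as in 22% of tested loci. The MIR5008,WNT9A locus, which also names a microRNA, was at 29.4 and 33.2 FPKM in GFP-DOX, against 11.2 and 14.0 FPKM in GFP, and rose in GFP, NSE4 and SMC5 cells (1.25, 1.27 and 1.51, adjusted p = 0.000926, 0.000914 and 0.00184). The shared loci that hold WNT7B and WNT2B did not pass in any background. The 7 ligand loci below the filter reached at most 0.955 FPKM.

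**Figure D4:**
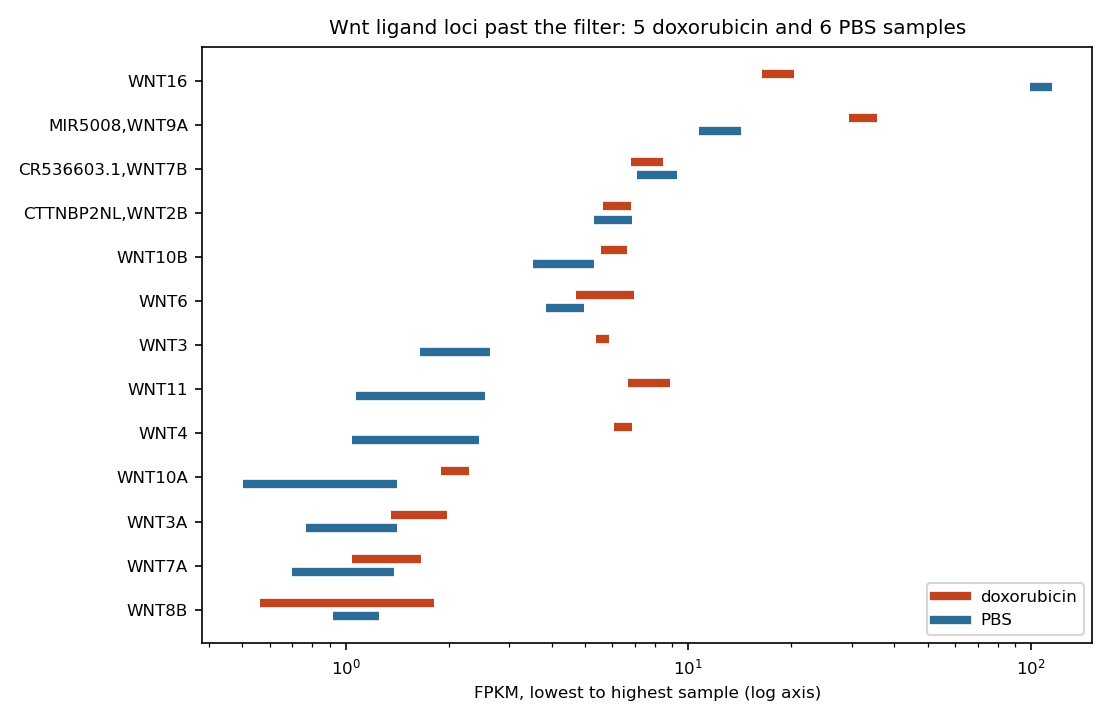
FPKM (x axis, log scale) of the Wnt ligand loci that passed the filter (y axis), each as the range over the 5 doxorubicin samples above the range over the 6 PBS samples. WNT16 lies at 16.4 to 20.4 FPKM with doxorubicin and 99.7 to 115 FPKM with PBS, and WNT11, WNT4 and WNT3 lie higher with doxorubicin.

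Receptor loci were called in both directions. Of 14 single-name receptor loci 4 rose and 2 fell in GFP cells, 3 and 3 in NSE4 cells, and 3 and 2 in SMC5 cells. Over all loci 17% rose and 14.1% fell in GFP cells, 16.3% and 13.9% in NSE4 cells, and 11% and 9.87% in SMC5 cells. LRP5, the co-receptor that DKK1 blocks, fell (8.63 and 10.2 FPKM in GFP-DOX, 18.1 and 19.8 FPKM in GFP, log2 change -0.94, adjusted p = 0.00124) and was also called in NSE4 and SMC5 cells (-0.97 and -1.01). The Frizzled receptor genes FZD9 (2.89 and 4.84 FPKM in GFP-DOX, 0.576 and 1.49 FPKM in GFP) and FZD8 (0.889 and 1.12 FPKM, against 0.128 and 0.0828 FPKM) were called higher in all 3 backgrounds. FZD8 was at most 0.128 FPKM in PBS samples and passed the filter only through its doxorubicin samples, so its difference was favoured by the filter. In GFP cells FZD9 was lost without GFP replicate 1 (adjusted p = 0.058) or GFP-DOX replicate 2 (0.0657), and FZD8 without GFP replicate 2 (0.0513) or GFP-DOX replicate 2 (0.0502). In NSE4 cells FZD9 did not hold after dropping any single NSE4-DOX or NSE4 library (0.0616 to 0.0769). In SMC5 cells FZD9 was lost without SMC5 replicate 2 (0.0634), and FZD8 without either SMC5 library (0.0927 and 0.111) or SMC5-DOX replicate 2 (0.0529), and under quantile normalization (0.0905).

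LGR4, the R-spondin receptor related to LGR5, was at 7.59 and 7.69 FPKM in GFP-DOX, against 4.66 and 5.36 FPKM in GFP, and was called in GFP, NSE4 and SMC5 cells (0.53, 0.73 and 0.86). In GFP cells LGR4 did not pass once any single GFP-DOX or GFP library was dropped (adjusted p = 0.0511 to 0.121). With RNF43 and ZNRF3 it makes up the 3 tested single-name loci of the R-spondin axis, of which 1 rose and 1 fell in GFP and NSE4 cells and 1 rose in SMC5 cells. The locus that fell was RNF43 XLOC_022539, which passed the filter only through its PBS samples. Of all tested loci 17% rose and 14.1% fell in GFP cells, 16.3% and 13.9% in NSE4 cells, and 11% and 9.87% in SMC5 cells. Among 2 tested loci of ligand secretion, NOTUM, an enzyme that inactivates Wnt ligands, was at 5.55 and 6.12 FPKM in GFP-DOX, against 10.6 and 10.4 FPKM in GFP (-0.75, adjusted p = 0.0116). That call did not hold without either GFP library (0.0532 and 0.0562) or without GFP-DOX replicate 1 (0.0607). In NSE4 cells NOTUM did not pass (-0.36, adjusted p = 0.14), though it did without NSE4 replicate 1 (-0.61, 0.0296). In SMC5 cells it passed (-0.85, adjusted p = 0.0233), but not without SMC5 replicate 1 (0.059) or 2 (0.0857). WLS, the carrier of Wnt ligands to the surface, did not pass, and of 2 tested secreted-inhibitor loci only DKK1 passed, the other being the Dickkopf receptor KREMEN1.

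Around NKD1, its paralogue NKD2 rose in GFP, NSE4 and SMC5 cells (24.4 and 32.6 FPKM in GFP-DOX, 12.3 and 12.1 FPKM in GFP, log2 changes 1.15, 1.02 and 1.02). DACT3, another Dishevelled-binding regulator, rose too (16.6 and 15.2 FPKM in GFP-DOX, 4.04 and 5.25 FPKM in GFP, 1.59, 1.33 and 1.40), and DVL1, a Dishevelled gene, fell (41.9 and 44.4 FPKM, against 85.0 and 92.1 FPKM, -1.02, -0.96 and -0.86). Of the 7 tested loci of Dishevelled and its regulators, 3 rose and 1 fell in GFP cells, and 2 rose and 1 fell in NSE4 and in SMC5 cells, where 17% and 14.1%, 16.3% and 13.9%, and 11% and 9.87% of all loci did. Counting CTNNB1 itself, 9 single-name loci of beta-catenin and the destruction complex were tested, of which 0 rose and 1 fell in GFP cells, 1 rose and 1 fell in NSE4 cells, and 0 were called by limma in SMC5 cells, where 2 higher and 1 lower had an unadjusted p under 0.05. Of all loci 31.1%, 30.2% and 20.9% were called in GFP, NSE4 and SMC5 cells. GSK3B, the kinase of the complex, was at 13.0 and 9.77 FPKM in GFP-DOX, against 16.1 and 18.2 FPKM in GFP (-0.56, adjusted p = 0.019), lost without GFP replicate 2 (0.109) or GFP-DOX replicate 2 (0.104). It fell in NSE4 cells (-0.77, adjusted p = 0.00545, 0.00256 to 0.0394 over the alternatives) and did not pass in SMC5 cells (-0.53, adjusted p = 0.0641). TNKS2, a tankyrase that destabilises AXIN, was called in NSE4 cells alone (0.37, adjusted p = 0.0335), and did not hold after dropping any single NSE4-DOX or NSE4 library (0.0842 to 0.135). Of the 2 single-name loci of TNKS, the related tankyrase, XLOC_050200 was not called (-0.17, -0.16 and -0.12 in GFP, NSE4 and SMC5 cells), and XLOC_050201 was listed at 0 in all samples but GFP replicate 2 (4.98 FPKM) and SMC5-DOX (4.13 FPKM). XLOC_050201 is 1 of the 2 loci counted above as higher in SMC5 cells, and that difference rests on the 1 SMC5-DOX sample.

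With TCF7 included, the list of TCF/LEF factors and cofactors had 9 tested loci, of which 2 rose and 3 fell in GFP cells, and 2 rose and 2 fell in NSE4 and in SMC5 cells. The shares of all loci that rose and fell were 17% and 14.1% in GFP cells, 16.3% and 13.9% in NSE4 cells, and 11% and 9.87% in SMC5 cells. AES, a short corepressor of the Groucho family, fell (108 and 119 FPKM in GFP-DOX, 174 and 174 FPKM in GFP, -0.61, adjusted p = 0.00596), also in NSE4 cells (-0.61) and in SMC5 cells (-0.53), where the call was lost without SMC5 replicate 1 (0.0629) or 2 (0.126) or SMC5-DOX replicate 1 (0.0671). BCL9, which links beta-catenin to Pygopus, fell in GFP, NSE4 and SMC5 cells (-0.68, -0.80 and -0.80), and its paralogue BCL9L rose (0.50, 0.50 and 0.69). The GFP call of BCL9 was lost without GFP replicate 2 (0.0677) or GFP-DOX replicate 1 (0.0562), and its SMC5 call without SMC5 replicate 2 (0.071). BCL9L was lost in GFP cells without either GFP library (0.0799 and 0.0895) or GFP-DOX replicate 2 (0.122), in NSE4 cells without NSE4 replicate 1 (0.104) or NSE4-DOX replicate 2 (0.127), and in SMC5 cells without either SMC5 library (0.0546 and 0.0763).

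Beta-catenin target genes did not move one way. Of 16 single-name loci tested from a list of 22 genes, which includes the members DKK1, TCF7, RNF43, ZNRF3 and NKD1, 5 rose and 9 fell in GFP cells, 4 rose and 7 fell in NSE4 cells, and 2 rose and 5 fell in SMC5 cells. Over all loci 17% rose and 14.1% fell in GFP cells, 16.3% and 13.9% in NSE4 cells, and 11% and 9.87% in SMC5 cells. RNF43 XLOC_022539, which passed the filter only through its PBS samples, is among the loci that fell in GFP and NSE4 cells. The list's median log2 change was -0.38, -0.34 and -0.35, beside 0.02, 0.03 and 0.02 over all loci. CD44, an adhesion receptor, fell (152 and 139 FPKM in GFP-DOX, 363 and 389 FPKM in GFP, log2 change -1.36, adjusted p = 6.15e-05), and so did MYC, the growth-promoting transcription factor (105 and 122 FPKM, against 172 and 193 FPKM, -0.68). EPHB3, an ephrin receptor of the crypt epithelium, rose (19.3 and 20.6 FPKM, against 5.31 and 7.68 FPKM, 1.503, adjusted p = 0.0014). Each of these 3 was called in the same direction in NSE4 cells (-1.36, -0.62 and 1.64) and SMC5 cells (-1.34, -0.76 and 1.29).

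**Figure D5:**
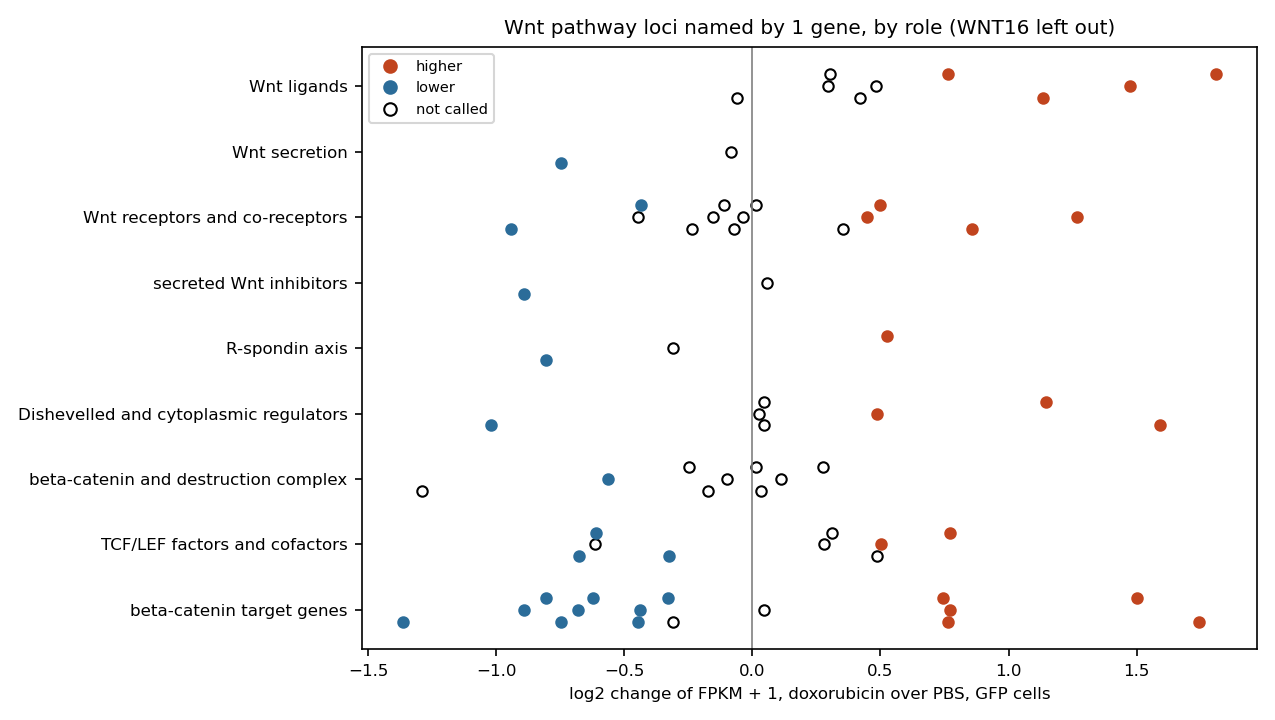
Log2 change of FPKM + 1 with doxorubicin over PBS in GFP cells (x axis) for single-name Wnt pathway loci grouped by role (y axis), coloured by call. The ligands beside WNT16 hold 4 loci called higher and 0 called lower, and the beta-catenin targets hold 5 higher and 9 lower. Of all tested loci 17% were called higher and 14.1% lower. WNT10A, among the 4, passed the filter only through its doxorubicin samples, and RNF43 XLOC_022539, among the 9, only through its PBS samples. The open point at -1.29 is 1 of 2 TNKS loci, XLOC_050201, listed at 0 in most samples.

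Across the 11 samples the loci most like WNT16, by Pearson r of log2(FPKM + 1) among 7513 loci with a single symbol and a mean of at least 5 FPKM, were CD44 (r = 0.998), STK39, a stress-activated kinase (0.998), EIF4B, a translation initiation factor (0.998), HIPK2, a kinase of the DNA damage response (0.997), and SQLE, an enzyme of cholesterol synthesis (0.997). Over the 6 group means the same 5 had r of 0.9993, 0.9994, 0.9993, 0.9985 and 0.9995. The samples share the doxorubicin step, which dominates such an r, and 682 of the 7513 loci exceeded 0.95. Among the members DKK1 had an r of 0.987 with WNT16 (number 143 of the 7513), ZNRF3 0.762, CTNNB1 -0.0944 and TCF7 -0.981. STK39 was at 9.23 and 10.4 FPKM in GFP-DOX, against 37.8 and 35.8 FPKM in GFP, and its log2 changes of -1.81, -1.87 and -2.03 in GFP, NSE4 and SMC5 cells were, like those of the other 4, smaller than those of WNT16.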

How the data were processed

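RNA of 12 HCT116 libraries was sequenced. Per the submitters' processing notes, the authors used TopHat and Cufflinks, with no versions, to make the deposited FPKM values. Their genome build was not given in the sources used here. Shared loci were left whole. Values were analysed as log2(FPKM + 1) with limma 3.58.1 in R 4.3.3: 6 groups in 1 fit, an intensity trend, 5 residual degrees of freedom, loci with FPKM of at least 1 in at least 2 of 11 samples, and Benjamini-Hochberg adjustment with a threshold of 0.05. The 2 SMC5-DOX columns were averaged (Pearson r 0.99943, against 0.98682 to 0.98805 in the other 5 pairs). P-values reflect library-to-library spread alone, which may be technical. Alternatives were median-ratio and quantile scaling, a pseudocount of 0.1, no filter, a stricter filter, a replicate block, the compared groups alone, 12 columns as samples, and each library left out. The fit was tested on simulated data.

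Genes named are the 10 members, the 3 single-name loci of smallest p per pathway list in GFP cells, ligand loci averaging at least 1 FPKM in a group, and the 5 loci most like WNT16. Members and lists were chosen with earlier results of these data known. Depth was estimated from single-fragment FPKM steps in genes with 1 transcript in GENCODE 29, and it limits precision for low genes; PECAM1 was not analysed here. Tables were made in pandas 2.3.3 under Python 3.11.15, plots in matplotlib 3.10.9.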

Additional observations from a re-analysis of the deposited data

How the results depend on the processing

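Member loci called beside WNT16 numbered 3, 3 and 2 for doxorubicin in GFP, NSE4 and SMC5 cells. In NSE4 cells they were 5 under median-ratio scaling, under the replicate block and with 12 columns entered as separate samples. The counts over all loci of NSE4 cells in these settings are not given here, so the 5 is no result about the members as a set. In SMC5 cells they were 0 when only the groups compared were fitted and 5 with 12 columns. With 1 library left out they were 2 to 3, 2 to 4 and 2 to 2. Among 2228 tested values of the named loci under the alternatives, 92 lost a call, 24 gained one and 2112 stayed on their side of the threshold. In 87 values the sign was opposite, each for a locus called in neither setting and with a reported log2 change of at most 0.21 in size, among them CTNNB1, the AXIN2 locus, NKD1, WNT8B and the WNT7B locus. Over all loci, doxorubicin called 4919, 4780 and 3310. Fitting only the groups compared gave 3168, 2437 and 0, and 12 columns gave 6077 in SMC5 cells. Leaving out 1 library gave 2956 to 3554, 2926 to 3598 and 1798 to 3523. The cause was not tested.

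Members called in the plasmid comparisons and interactions stayed at 0 in every setting run, while the counts over all loci were small and unsteady. For NSE4 against GFP with PBS (7 loci) they were 3 with a pseudocount of 0.1, 11 with no filter, 3 with the stricter filter (a mean of 3 FPKM), 1 with only the groups compared and 8 to 11 with 1 library left out. For NSE4-DOX against GFP-DOX (9 loci) they were 5, 100 and 5 with the pseudocount, no filter and only the groups compared, 23 with 12 columns and 8 to 13 with 1 library left out. For SMC5 against GFP with PBS (0 loci by limma, 489 at an unadjusted p under 0.05) they were 9 with no filter, 1 with only the groups compared, 2 with 12 columns and 4 to 11 with 1 library left out. For SMC5-DOX against GFP-DOX (5 loci) they were 3 with median-ratio scaling, 2 with the pseudocount, 539 with no filter, 8 with the stricter filter, 3 with the replicate block, 0 with only the groups compared, 129 with 12 columns and 2 to 8 with 1 library left out. For the NSE4 interaction (5 loci) they were 2, 71 and 2 with the pseudocount, no filter and stricter filter, 3 with the replicate block, 8 with only the groups compared, 9 with 12 columns and 3 to 10 with 1 library left out. For the SMC5 interaction (3 loci) they were 431 with no filter, 5 with the stricter filter, 11 with only the groups compared, 83 with 12 columns and 2 to 10 with 1 library left out.

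Replicate numbers were not taken to pair the libraries: the differences between replicates correlated at 0 between GFP-DOX and GFP and at 0.056 between NSE4-DOX and NSE4, and among the other pairs of groups at -0.092 (NSE4-DOX with GFP) to 0.126 (NSE4 with SMC5), with 0.113 for SMC5 with GFP. Under the replicate block NKD1 (adjusted p = 0.0209) and the RNF43,SUPT4H1 locus (0.047) passed in NSE4 cells, and WNT6 (0.0266) and TNKS2 (0.0448) in GFP cells. Fitting only the groups compared ended the GFP calls of FZD9 (0.0734), LGR4 (0.061), GSK3B (0.0956) and BCL9L (0.0659) and the NSE4 calls of LGR4 (0.058), AES (0.0594), BCL9 (0.0598) and BCL9L (0.0805). NKD1 and RNF43 XLOC_022539 have no value under the stricter filter. Low FPKM limits what can be read for LGR5, LEF1 and the small RNF43 and ZNRF3 loci.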
